A study of Mus musculus with 40 samples.

Results

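The uninjured rib of immature mice was compared with that of mature mice, using the 8 baseline libraries of a series of 40 bulk RNAseq samples. All 4 immature baseline libraries (replicates 2, 3, 4 and 6) and all 4 mature baseline libraries (replicates 1, 2, 3 and 4) were taken, chosen by age and stage in the sample labels and not by any measured value. The study followed rib regeneration in immature and mature mice after resection, with tissue from baseline and from 4 times counted in days post resection (0, 2, 5 and 14dpr), which gives 10 groups. Mice of both ages were Wild Type, and the study's methods describe female C57BL/6 mice. The labels name no further allele, agent or treatment that separates the baseline groups. The labels give 7 weeks for the immature mice and more than 10 months for the mature mice. Each library came from a composite of bone, bone marrow and intercostal muscle, so cell types were not separated, and fewer cells of a type cannot be told apart from less RNA per cell. By the labels every sample was collected once the rib had been resected, whereas the paper uses baseline for the state before surgery, and that reading is used here. Neither source says outright that each library is a different mouse, so p-values measure the spread between these libraries.

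Between weaning and full adulthood growth of the skeleton slows, and connective tissue passes from laying down matrix to maintaining it. Fibrillar collagens, elastic fibres and their cross-linking enzymes form the extracellular matrix of periosteum, tendon, fascia and the sheaths around muscle, and are made by fibroblast-like cells. Imprinted genes, which are read from the copy of 1 parent only, include a set that promotes or restrains growth early in life and declines as growth slows. Bone marrow is a site of blood formation and also a long-term home of antibody-secreting plasma cells, which accumulate as an animal meets antigens.

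The total count per library was 8755857 to 9775293 in the immature libraries and 8284742 to 10385894 in the mature libraries and did not differ beyond the spread (exact two-sided permutation test, p = 0.914, smallest possible p 0.0286). Markers of muscle, bone, marrow and peripheral nerve were detected at both ages. All 20 fast skeletal muscle markers had a positive log2 fold change, and their mean log2 CPM was 11.46 to 11.87 in immature and 10.54 to 11.58 in mature libraries. A list of mesothelium and lung markers was highest in immature replicate 2 and mature replicate 4, with a mean log2 CPM of 1.02 to 3.42 in immature and 0.80 to 2.36 in mature libraries. The labels speak of separate sequencing runs without assigning libraries to them, so a run effect was not tested. Below, log2 fold changes are immature minus mature, CPM are read counts relative to the library size after TMM scaling, and values per library are listed in the replicate order given above.

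Of 21204 genes tested, 124 (0.585%) differed between immature and mature mice at an adjusted p under 0.05 (edgeR's quasi-likelihood test, Benjamini-Hochberg adjustment). Of these, 76 were higher in immature mice (0.358%) and 48 were higher in mature mice (0.226%). At an unadjusted p under 0.05, 2482 genes (11.7%) passed, 6% of all genes with immature higher and 5.7% with mature higher. In 119 of the 124 genes the libraries of the ages did not overlap, which also held for 4.42% of all tested genes with immature higher and 4.63% with mature higher. For 81 of the 124 genes the difference exceeded 2-fold, and the median log2 fold change was 1.14 among the genes higher in immature mice and -1.38 among those higher in mature mice. The spread of each gene was estimated from all 39 analysed libraries. With the 8 baseline libraries alone, 471 genes passed (2.22%), 210 higher in immature and 261 higher in mature mice, and 112 of the 124 genes were among them. DESeq2 called 338 genes (1.99%), which included 120 of the 124. Left out singly, mature replicate 3 left 27 calls, mature replicate 2 left 40, immature replicate 4 left 46, immature replicate 3 left 61, mature replicate 1 left 68 and immature replicate 6 left 73, whereas 256 genes passed without mature replicate 4. Of the 124 genes, 19 passed in all 8 of these fits, 51 passed in at least 5, and none changed direction in any fit or scaling tried.

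**Figure D1:**
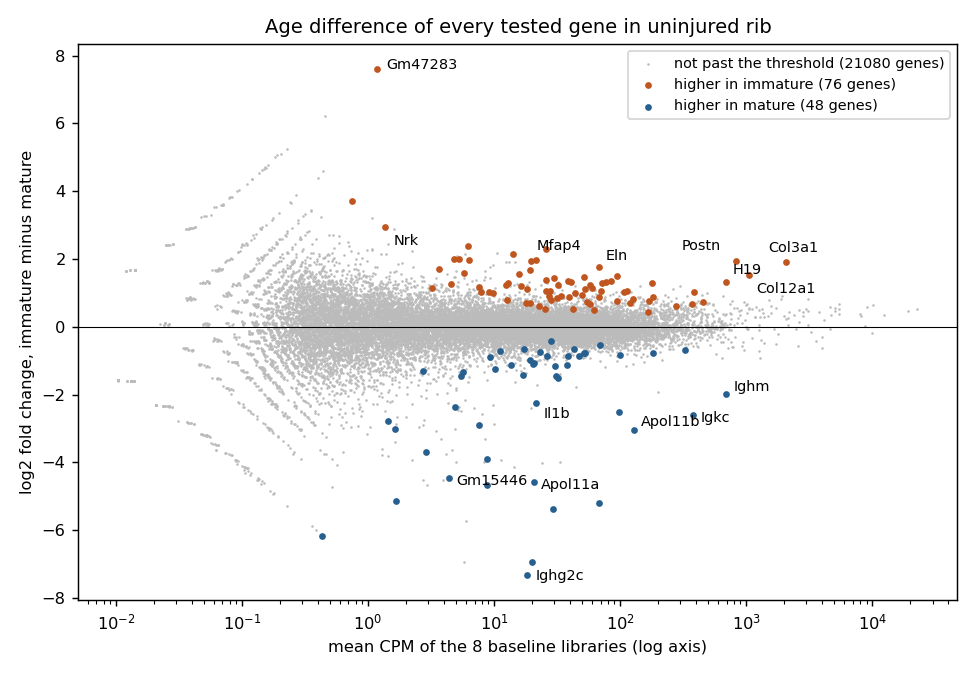
Each point is 1 of the 21204 tested genes, with the mean CPM of the 8 baseline libraries on a log axis and the fitted log2 fold change of immature minus mature on the vertical axis. Coloured points passed the threshold, 76 above and 48 below the line at 0, and the called genes reach from rarely read transcripts to Col3a1 at the right.

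Connective tissue matrix genes were higher in the immature rib, with 12 called genes over 5 lists. Of 11 fibrillar collagen genes, 1 rose and none fell in immature relative to mature mice. Of 15 other collagens 2 rose, of 27 collagen-processing genes 2, of 17 elastic fibre and microfibril genes 4, and of 21 small proteoglycan and other matrix genes 3, again with none in the opposite direction. The median log2 fold changes of these 5 lists were 0.63, 0.63, 0.36, 0.36 and 0.57, beside -0.00025 over all tested genes. Col2a1, which the paper counts among chondrogenic markers, had a value of the opposite sign without passing (log2 fold change -2.39, adjusted p = 0.438). Its mean was 6.35 CPM in immature and 32.8 CPM in mature mice. The ages did not overlap for Col2a1, as for 4.63% of all tested genes with mature higher. With the 8 baseline libraries alone, 3 fibrillar collagens passed as higher in immature and 1 as higher in mature mice. Only Col2a1 and Col11a2 (log2 fold change -0.04) had negative values among the 11 in the fit over 39 libraries.

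Col3a1 encodes type III collagen, the fibrillar collagen of extensible tissues such as skin, vessel wall and muscle sheath, and had the smallest adjusted p of the comparison. It stood at 3191, 2812, 4071 and 3071 CPM in the immature libraries and 1088, 675, 514 and 1252 CPM in the mature libraries. Every immature library was above every mature library, with means of 3286 ± 547 and 882 ± 345 CPM (SD, n = 4 each), log2 fold change 1.90, SE 0.22, adjusted p = 7.81e-06. The gene lies on chromosome 1, 45311538 to 45349706, plus strand (GRCm38, GENCODE vM21). Its proximal promoter is shown because this gene led the comparison. The RefSeq window chr1:45311288-45311587 (GRCm38.p6, plus strand, 5′ to 3′) runs from 250 bases before the start site to 50 after it, and capitals mark a TATAAA match that begins 117 bases before the start.
Col3a1: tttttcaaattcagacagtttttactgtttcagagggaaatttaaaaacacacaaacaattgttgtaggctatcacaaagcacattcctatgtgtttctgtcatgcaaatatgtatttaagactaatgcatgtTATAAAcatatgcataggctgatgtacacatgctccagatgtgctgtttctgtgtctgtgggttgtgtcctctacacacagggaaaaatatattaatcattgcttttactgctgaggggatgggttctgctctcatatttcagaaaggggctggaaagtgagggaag

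Col12a1 and Col16a1 encode collagens that sit on the surface of fibrils and link them to other matrix. Col12a1 was at 1352, 1333, 1869 and 1692 CPM in the immature libraries and 709.7, 512, 368 and 594 CPM in the mature libraries. The groups were separate by a wide margin (log2 fold change 1.52, SE 0.31, adjusted p = 0.0114). Col16a1 was at 214, 219, 362 and 232 CPM in the immature libraries and 116, 88, 73.4 and 139 CPM in the mature libraries, with immature replicate 4 the highest (log2 fold change 1.30, SE 0.27, adjusted p = 0.0117). Loxl2, a lysyl oxidase that cross-links collagen and elastin, was at 49.6, 57.7, 82.5 and 40.7 CPM in the immature libraries and 25.3, 23.4, 16.5 and 28 CPM in the mature libraries (log2 fold change 1.31, SE 0.24, adjusted p = 0.00475), without overlap. Adamts2, the protease that removes the amino-terminal propeptide of fibrillar procollagens, differed less (log2 fold change 0.70, SE 0.16, adjusted p = 0.0265). Collagens that missed the threshold included Col5a2 (log2 fold change 0.76, adjusted p = 0.0792), Col5a1 (log2 fold change 0.94, adjusted p = 0.0829), Col6a1 (log2 fold change 0.74, adjusted p = 0.0763) and Col1a2 (log2 fold change 0.32, adjusted p = 0.748), the last a chain of the type I collagen that dominates bone.

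The elastic fibre genes gave the most calls of these lists. Eln encodes tropoelastin, the rubber-like core of the elastic fibre. It was at 116, 119.6, 109 and 73.4 CPM in the immature libraries and 23.4, 31.2, 29.9 and 38.4 CPM in the mature libraries. All 4 immature libraries were above the highest mature library, mature replicate 4 (log2 fold change 1.77, SE 0.32, adjusted p = 0.00473). Mfap4, a microfibril-associated glycoprotein that binds elastin and collagen, was at 31.4, 28.7, 35.9 and 28.6 CPM in the immature libraries and 8.28, 6.12, 7.2 and 11 CPM in the mature libraries, again without overlap (log2 fold change 1.94, SE 0.25, adjusted p = 3.70e-05). Mfap2 and Mfap5, the paired microfibril-associated glycoproteins that decorate fibrillin, were also higher in immature mice (log2 fold change 1.60, adjusted p = 0.0270, and log2 fold change 0.99, adjusted p = 0.0137). Fibrillin-1 itself, Fbn1, did not pass (log2 fold change 0.52, adjusted p = 0.333).

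Among the proteoglycans and matricellular genes, Postn, which encodes the periosteum- and tendon-rich matricellular protein periostin, was at 932, 1152, 1717 and 1491 CPM in the immature libraries and 492, 256, 197 and 430.4 CPM in the mature libraries. Immature replicates 4 and 6 were the highest and mature replicate 3 the lowest (log2 fold change 1.94, SE 0.36, adjusted p = 0.00481). Lum and Kera encode lumican and keratocan, small leucine-rich proteoglycans that space collagen fibrils. Lum was at 343, 432, 641 and 629 CPM in the immature libraries and 290.4, 238, 186 and 295 CPM in the mature libraries (log2 fold change 1.02, SE 0.21, adjusted p = 0.0125), and Kera, with far fewer reads, at 4.34, 7.11, 14.5 and 7.66 CPM in the immature libraries and 2.93, 2.6, 0.887 and 2.02 CPM in the mature libraries (log2 fold change 1.99, SE 0.41, adjusted p = 0.0123). The basement membrane genes Lama2 (log2 fold change 0.81, adjusted p = 0.0180), whose laminin chain surrounds muscle fibres and Schwann cells, and Nid1 (log2 fold change 0.75, adjusted p = 0.0251), whose product links laminin with type IV collagen, were likewise higher in immature mice.

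The 12 called genes of the 5 matrix lists all passed with the 8 baseline libraries alone and with DESeq2. With the fast muscle score as a covariate 10 of the 12 passed, and with that covariate in the 8 libraries alone 4 passed, the median log2 fold change of the 12 being 1.56, 1.68 and 1.55 in the planned fit and these fits. A block for the replicate number left 5 of the 12. Of the genes described, Col3a1, Eln, Mfap4 and Loxl2 passed whichever library was left out. Postn did not pass without mature replicate 3 (adjusted p = 0.0520). Col12a1 and Col16a1 did not pass without mature replicate 2, mature replicate 3 or immature replicate 4 (up to 0.0835 and 0.115), Lum without those or immature replicate 6 (up to 0.115), Kera without mature replicate 3 or immature replicate 4 (up to 0.128) and Mfap5 without mature replicate 1, 2 or 3 (up to 0.0937). Adamts2, Mfap2, Lama2 and Nid1 each lost the call without at least 5 of the 8 libraries in turn (up to 0.146, 0.139, 0.122 and 0.134).

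**Figure D2:**
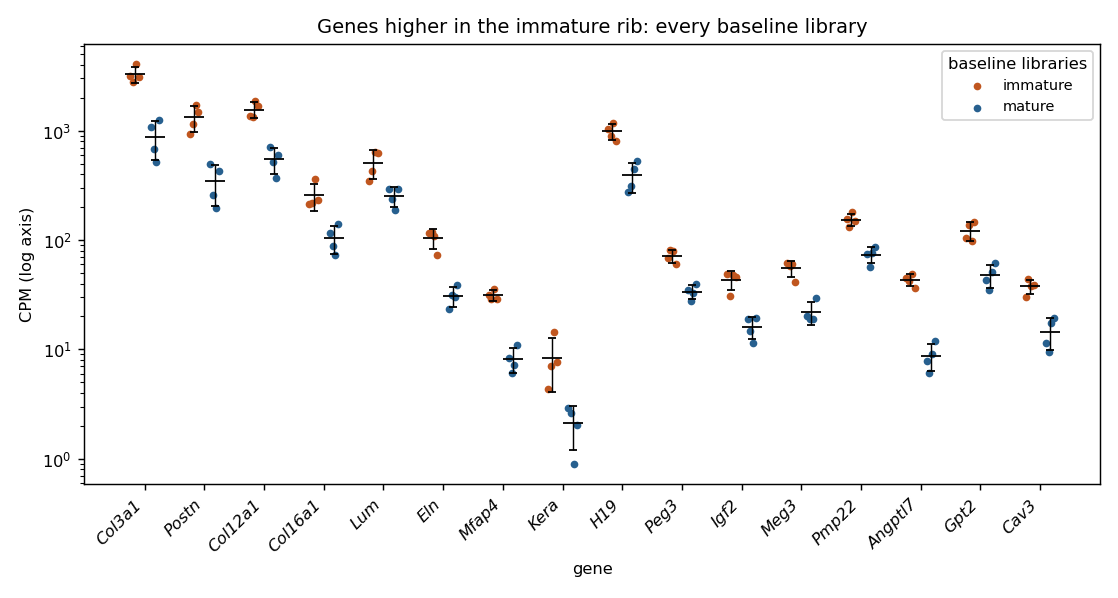
CPM of 16 genes higher in the immature rib, with 1 point per baseline library (immature, orange; mature, blue) on a log axis; bars give the mean and SD of 4 libraries. In each of these genes the 4 immature points sit above the 4 mature points, from Kera at the bottom of the axis to Col3a1 at the top.

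Imprinted growth genes were higher in the immature rib. Of 22 measured members, 5 rose and none fell, 18 had a positive log2 fold change, and the median was 0.63. H19, a maternally expressed noncoding RNA, was the most abundant of the 5, at 1047, 899, 1175 and 813 CPM in the immature libraries and 272, 309.9, 448 and 529.8 CPM in the mature libraries. The lowest immature library exceeded the highest mature library (log2 fold change 1.34, SE 0.22, adjusted p = 0.00184). Its neighbour Igf2, the paternally expressed fetal growth factor, was at 49.2, 30.8, 47.9 and 45.6 CPM in the immature libraries and 18.8, 14.8, 11.4 and 19.5 CPM in the mature libraries (log2 fold change 1.43, SE 0.29, adjusted p = 0.0117). H19 lies on chromosome 7, 142575529 to 142578143, minus strand, and Igf2 on chromosome 7, 142650766 to 142666816, minus strand (GRCm38, GENCODE vM21).

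Another imprinted domain gave another pair of calls. Meg3 and Rian are maternally expressed noncoding RNAs of one cluster, on chromosome 12, 109541001 to 109571726, plus strand, and on chromosome 12, 109603940 to 109661716, plus strand, respectively. Rian was at 80.9, 67.9, 92.4 and 61.9 CPM in the immature libraries and 27.2, 23.4, 21.1 and 36.8 CPM in the mature libraries (log2 fold change 1.48, SE 0.25, adjusted p = 0.00225), and Meg3 was at 62, 57.6, 60.8 and 41.7 CPM in the immature libraries and 20.3, 18.8, 18.8 and 29.4 CPM in the mature libraries (log2 fold change 1.35, SE 0.32, adjusted p = 0.0352). Neither overlapped between the ages. Peg3, a paternally expressed zinc finger gene, was at 67.9, 80.4, 79.1 and 60.1 CPM in the immature libraries and 34.8, 27.4, 32.6 and 39.3 CPM in the mature libraries (log2 fold change 1.10, SE 0.21, adjusted p = 0.00494). Grb10, an imprinted restraint on insulin and IGF signalling, missed the threshold (log2 fold change 0.64, adjusted p = 0.0569), and Nnat had a value of the opposite sign (log2 fold change -1.78, adjusted p = 0.213). Of the 23 genes of the IGF axis 2 passed, Igf2 and Igf2bp2, whose product binds Igf2 mRNA (log2 fold change 1.13, adjusted p = 0.0307), whereas Igf1, the main postnatal growth factor of the family, did not (log2 fold change 0.40, adjusted p = 0.425). H19, Rian and Peg3 passed whichever library was left out. Igf2 did not pass without mature replicate 2 or 3 (up to 0.0835), and Meg3 and Igf2bp2 did not pass without 6 and 7 of the libraries in turn (up to 0.147 and 0.146). With the muscle score as a covariate, 3 of the 5 imprinted genes passed, and 3 passed with the replicate number as a block.

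Nerve sheath, tendon and muscle lists also leaned towards immature mice. Of 19 Schwann cell and myelin markers 2 rose, among them Pmp22, which encodes a structural protein of peripheral myelin, and 17 had a positive log2 fold change (median 0.60). Pmp22 was at 156, 131, 179.5 and 149.9 CPM in the immature libraries and 73.8, 57.2, 76.6 and 87.1 CPM in the mature libraries (log2 fold change 1.06, SE 0.19, adjusted p = 0.00397). The mean log2 CPM of the list was 3.26 to 3.84 in immature and 2.39 to 3.38 in mature libraries. Pmp22 passed whichever library was left out.

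Of 11 tendon and fascia markers 2 rose, Kera and Chodl (chondrolectin, log2 fold change 1.29, adjusted p = 0.0207), while Tnmd, which encodes the tendon protein tenomodulin, did not pass (log2 fold change 1.22, adjusted p = 0.111). Neither of the 2 tendon calls passed with the muscle score as a covariate. No fast muscle gene passed, although all 20 were positive (median 0.59, 10 at an unadjusted p under 0.05 and 1 by DESeq2, Myl1 log2 fold change 0.90, adjusted p = 0.123). Of 12 slow muscle genes 1 passed, Atp2a2, the calcium pump of slow and cardiac muscle (log2 fold change 0.66, adjusted p = 0.0466). None of 17 developmental muscle genes passed (6 at an unadjusted p under 0.05 and 3 by DESeq2), among them Chrnd (log2 fold change 1.62, adjusted p = 0.0569) and Actc1 (log2 fold change 1.82, adjusted p = 0.0651). All 23 oxidative phosphorylation genes listed were positive without a call (median 0.37, 12 at an unadjusted p under 0.05 and 0 by DESeq2). Chodl lost its call without 4 of the libraries in turn, and Atp2a2 without 7 (up to 0.153 and 0.206).

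A pair of genes with high expression in muscle passed outside these lists. Cav3 encodes the caveolin of the muscle membrane and was at 29.8, 43.8, 38.2 and 38.5 CPM in the immature libraries and 11.5, 9.56, 17.4 and 19.4 CPM in the mature libraries (log2 fold change 1.38, SE 0.23, adjusted p = 0.00225). Gpt2 encodes the mitochondrial alanine aminotransferase, which is abundant in muscle, and was at 104, 138, 97.4 and 145 CPM in the immature libraries and 43.1, 34.8, 51.4 and 61.7 CPM in the mature libraries (log2 fold change 1.34, SE 0.17, adjusted p = 2.88e-05). The highest mature library, replicate 4, was also that with the highest muscle score of its group. Hacd1, a muscle-rich enzyme of very long chain fatty acid synthesis, was higher as well (log2 fold change 1.13, adjusted p = 0.00976), and lost its call without mature replicate 1 or 2 (up to 0.0582). With the muscle score as a covariate, the log2 fold change of Cav3 and Gpt2 was 0.98 and 1.23 (adjusted p = 0.00510 and 0.000282), and with that covariate in the 8 libraries alone it was 0.87 and 1.07 (0.0812 and 0.0544).

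Further genes higher in immature mice encode secreted or membrane proteins. Angptl7, an angiopoietin-like secreted protein, was at 44.6, 42.3, 49.4 and 36.3 CPM in the immature libraries and 7.86, 6.12, 9.07 and 12 CPM in the mature libraries. No mature library came near the lowest immature one (log2 fold change 2.30, SE 0.37, adjusted p = 0.00121). Itm2a, a membrane protein of muscle and cartilage precursors, was at 92, 96.6, 127 and 94.6 CPM in the immature libraries and 40.8, 31, 40.4 and 53.9 CPM in the mature libraries (log2 fold change 1.30, SE 0.24, adjusted p = 0.00478). Both passed whichever library was left out.

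Prss35, a secreted protease-like protein, was at 8.0, 12.9, 44.1 and 27.9 CPM in the immature libraries and 5.87, 4.19, 4.93 and 6.06 CPM in the mature libraries, so its immature libraries differed widely among themselves (log2 fold change 2.15, SE 0.44, adjusted p = 0.0113). The same held for Adamtsl2, a fibrillin-binding glycoprotein, at 6.97, 4.54, 10.7 and 19.2 CPM in the immature libraries and 1.89, 2.77, 1.08 and 2.13 CPM in the mature libraries (log2 fold change 2.39, SE 0.48, adjusted p = 0.0107), and for Ptn, the growth factor pleiotrophin, at 15.4, 27.3, 42.2 and 33.3 CPM in the immature libraries and 13, 7.38, 5.72 and 11 CPM in the mature libraries (log2 fold change 1.68, SE 0.35, adjusted p = 0.0123). C1qtnf3 (log2 fold change 1.57, adjusted p = 0.0110) and Shisal1 (log2 fold change 1.97, adjusted p = 0.0229) were higher too, as were Kcng4, a modifier subunit of potassium channels (log2 fold change 2.01, adjusted p = 0.0493), and Nrk, a kinase known from placenta and embryonic muscle (log2 fold change 2.95, adjusted p = 0.0189). Each of these 7 lost its call without mature replicate 3, and each also without at least 1 further library, with an adjusted p of up to 0.133 for Prss35, 0.0731 for Adamtsl2, 0.107 for Ptn, 0.0835 for C1qtnf3, 0.120 for Shisal1, 0.163 for Kcng4 and 0.106 for Nrk over the leave-one-out fits. Kcng4 lost its call without any of the 8 libraries.

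Timp1, an inhibitor of matrix metalloproteinases (log2 fold change 1.22, adjusted p = 0.0305), Dkk3, a secreted Dickkopf family member (log2 fold change 0.93, adjusted p = 0.0265), Htra1 (log2 fold change 0.74, adjusted p = 0.00478) and Htra3 (log2 fold change 0.86, adjusted p = 0.0178), secreted serine proteases, and Vipr2, a receptor of vasoactive intestinal peptide (log2 fold change 1.25, adjusted p = 0.00614), were also higher in immature mice. Each lost its call without mature replicate 3, and Timp1, Dkk3 and Htra3 also without further libraries (up to 0.143 for Timp1, 0.158 for Dkk3, 0.0507 for Htra1, 0.107 for Htra3 and 0.0583 for Vipr2). Fkbp5, a co-chaperone induced by glucocorticoids, was at 112, 85.8, 72.2 and 169 CPM in the immature libraries and 40.6, 40.3, 47.3 and 46.8 CPM in the mature libraries. Immature replicate 6 was the highest (log2 fold change 1.33, SE 0.28, adjusted p = 0.0156), and without it the adjusted p was 0.0999. The call was also lost without mature replicate 1, 2 or 3. It was the only call among 13 glucocorticoid- and feeding-responsive genes, 11 of which had a positive log2 fold change.

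Mucl2, a mucin-like secreted protein, and Scgb2b27, a secretoglobin, are known from exocrine glands rather than from bone or muscle. Mucl2 was at 45.1, 32.3, 35.7 and 23.9 CPM in the immature libraries and 13.1, 6.29, 8.38 and 7.4 CPM in the mature libraries (log2 fold change 1.96, SE 0.39, adjusted p = 0.00891). Scgb2b27 was at 5.71, 6.08, 5.67 and 4.88 CPM in the immature libraries and 2.72, 1.17, 1.87 and 1.01 CPM in the mature libraries (log2 fold change 1.72, SE 0.36, adjusted p = 0.0123). The ages did not overlap for either gene, and both calls were lost without mature replicate 2 or 3 (up to 0.0610 and 0.0873). Of 8 measured keratinocyte and mammary epithelium markers none passed (0 at an unadjusted p under 0.05 and 0 by DESeq2), and the mean log2 CPM of that list was 1.16 to 1.92 in immature and 1.15 to 1.89 in mature libraries. The part of gland tissue in these differences was not tested.

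Antibody transcripts were higher in the mature rib. Summed over 163 immunoglobulin genes, they took 720 ± 176 CPM in immature and 3090.4 ± 858 CPM in mature mice (SD, n = 4 each), 4.29 times as much. The sum per library was 838, 896, 523 and 623 CPM in immature mice and 2675, 3317, 4176 and 2193 CPM in mature mice, so the groups were well apart. Of 11 constant region genes 3 passed, all higher in mature mice, and of 141 variable segments 6 passed, also all higher in mature mice. Reads of near-identical segments may have been shared or dropped in counting, so values of single segments are uncertain.

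Ighm, the constant region of IgM, was at 316, 322, 194 and 283 CPM in the immature libraries and 836, 1512, 1208 and 865 CPM in the mature libraries (log2 fold change -1.99, SE 0.42, adjusted p = 0.0147). Igkc, the kappa light chain constant region, was at 164, 127, 76.1 and 62.3 CPM in the immature libraries and 527, 642, 955 and 473 CPM in the mature libraries (log2 fold change -2.60, SE 0.57, adjusted p = 0.0189). Jchain, which joins IgM and IgA into polymers and marks antibody-secreting cells, was at 35.9, 40.1, 25.5 and 14.5 CPM in the immature libraries and 153, 161, 232 and 116 CPM in the mature libraries (log2 fold change -2.51, SE 0.61, adjusted p = 0.0437). In all 3 genes the lowest mature library was above the highest immature library. Ighg2c, the constant region of a class-switched IgG, was at 0, 0, 0.908 and 0 CPM in the immature libraries and 35.6, 18.8, 52.5 and 37.9 CPM in the mature libraries, with no read in 3 of 4 immature libraries (log2 fold change -7.32, SE 1.19, adjusted p = 0.00155). Ighg2b (log2 fold change -3.99, adjusted p = 0.0767), Ighg1 (log2 fold change -4.03, adjusted p = 0.110) and Igha (log2 fold change -1.92, adjusted p = 0.248) had values of the same sign without passing. Of 19 plasma cell markers, which hold Jchain, Igkc and Ighg2c, these 3 rose in mature mice and the median log2 fold change was -0.99.

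Markers of other B cell stages did not move this way. None of 23 B cell development genes passed (median 0.31, 0 at an unadjusted p under 0.05 and 0 by DESeq2), and of 16 mature B cell genes Ighm alone did (median 0.23). Ighd, which naive B cells express beside Ighm, was at 27.2 CPM in immature and 14.5 CPM in mature mice (log2 fold change 0.90, adjusted p = 0.482). Among the variable segments, Ighv11-2 was at 2.74, 1.24, 1.13 and 0.383 CPM in the immature libraries and 12.6, 20.1, 162 and 34.4 CPM in the mature libraries, and Igkv14-126 was at 5.48, 1.96, 3.06 and 3.92 CPM in the immature libraries and 29.2, 51.2, 371 and 79.5 CPM in the mature libraries. Mature replicate 3 was the highest for both, several times above the other mature libraries (log2 fold change -5.39, SE 0.96, adjusted p = 0.00397, and log2 fold change -5.20, SE 0.92, adjusted p = 0.00389). These heavy and light chain segments are known as partners in B-1 cell antibodies to phosphatidylcholine. Without mature replicate 3 neither passed (0.0607 and 0.0530). Igkv12-89 was at 157 CPM in mature replicate 2 and at no more than 0.898 CPM in the 7 other libraries, and without that library its adjusted p was 0.919. Ighg2c passed whichever library was left out, whereas Ighm, Igkc and Jchain did not pass without 4, 5 and 7 of the libraries in turn (up to 0.113, 0.124 and 0.178). With the muscle score as a covariate 5 of the 10 immunoglobulin and Jchain calls passed, and with the 8 baseline libraries alone 9 passed. A block for the replicate number left 0 of the 10, with Ighg2c at an adjusted p of 0.0682.

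Some single genes known from innate immune cells were higher in mature mice, while the lists of such cells gave few calls or none. Of 21 monocyte and macrophage markers 1 passed. At an unadjusted p under 0.05, 12 of the 21 were higher in mature mice, beside 5.7% of all genes, and DESeq2 called 1. Calls were 0 of 20 neutrophil granule genes (0 at an unadjusted p under 0.05 and 0 by DESeq2). They were 0 of 18 eosinophil, basophil and mast cell markers (3 at an unadjusted p under 0.05 and 1 by DESeq2). Il1b, the inflammatory cytokine interleukin-1 beta, was at 10.6, 5.57, 7.15 and 6.7 CPM in the immature libraries and 25.8, 30.2, 61.4 and 26.1 CPM in the mature libraries, with mature replicate 3 the highest (log2 fold change -2.26, SE 0.44, adjusted p = 0.00900). It was the only call among 36 chemokines and cytokines. Acod1, which makes the antimicrobial metabolite itaconate in activated macrophages, was at 0.228, 0, 0.908 and 0.479 CPM in the immature libraries and 1.68, 4.11, 11.8 and 3.7 CPM in the mature libraries, again highest in mature replicate 3 (log2 fold change -3.71, SE 0.76, adjusted p = 0.0121). Without that library the adjusted p of Il1b was 0.0741 and that of Acod1 was 0.112, and Acod1 also lost its call without immature replicate 3. The proximal promoters of these myeloid genes are shown because both carry a TATAAA match, in capitals, near the usual distance from the start (31 and 28 bases before it), which 10.2% of 13137 tested genes with a promoter in the table hold anywhere in the window. The RefSeq windows are chr2:129371090-129371389 on the minus strand and chr14:103046762-103047061 on the plus strand (GRCm38.p6), each 250 bases before to 50 after the start, 5′ to 3′.
Il1b: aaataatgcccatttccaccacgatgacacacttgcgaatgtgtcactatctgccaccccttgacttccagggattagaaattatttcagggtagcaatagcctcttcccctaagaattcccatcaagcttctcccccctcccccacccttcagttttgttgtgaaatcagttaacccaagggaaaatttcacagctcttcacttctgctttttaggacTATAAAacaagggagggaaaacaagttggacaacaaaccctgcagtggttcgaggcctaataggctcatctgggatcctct
Acod1: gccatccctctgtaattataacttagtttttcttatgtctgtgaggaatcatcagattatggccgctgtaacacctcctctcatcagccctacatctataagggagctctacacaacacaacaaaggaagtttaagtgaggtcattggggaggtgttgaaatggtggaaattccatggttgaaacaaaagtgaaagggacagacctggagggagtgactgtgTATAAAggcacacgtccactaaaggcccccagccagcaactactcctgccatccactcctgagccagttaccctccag

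Tlr2, Tlr8 and Trem2 encode receptors for microbial products or lipids, and each passed as higher in mature mice. Tlr2, which senses bacterial lipoproteins, was at 14.4, 10.4, 13.6 and 14.9 CPM in the immature libraries and 25, 24.6, 36.8 and 25.6 CPM in the mature libraries (log2 fold change -1.07, SE 0.20, adjusted p = 0.00478). Tlr8, an endosomal RNA sensor, was at 15.2, 9.79, 10.2 and 16.3 CPM in the immature libraries and 45.3, 23.4, 24.1 and 17.7 CPM in the mature libraries (log2 fold change -1.10, SE 0.22, adjusted p = 0.0113). Trem2, a lipid receptor of macrophages and osteoclast precursors, was at 2.97, 2.89, 3.63 and 2.3 CPM in the immature libraries and 10.7, 7.46, 7.39 and 6.4 CPM in the mature libraries (log2 fold change -1.44, SE 0.27, adjusted p = 0.00577), and it was the only call among 21 monocyte and macrophage markers, of which 20 had a negative log2 fold change (median -0.58). The mean log2 CPM of that list was 5.11 to 5.54 in immature and 5.32 to 6.10 in mature libraries. Trem2 passed whichever library was left out. Tlr2 lost its call without mature replicate 3 (0.0530), and Tlr8 without mature replicate 1, immature replicate 3 or immature replicate 4 (up to 0.115).

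Slc11a1, a metal transporter of the phagosome (log2 fold change -0.86, adjusted p = 0.0123), Wfdc17, a secreted protein of activated myeloid cells (log2 fold change -1.43, adjusted p = 0.0204), Il10ra, the ligand-binding chain of the interleukin-10 receptor (log2 fold change -0.88, adjusted p = 0.0352), and Slc15a3, a lysosomal peptide and histidine transporter (log2 fold change -1.13, adjusted p = 0.0406), passed in the same direction. So did Cd244a, a receptor of natural killer cells (log2 fold change -1.25, adjusted p = 0.0207), and Plscr1, an interferon-inducible membrane protein (log2 fold change -0.97, adjusted p = 0.0154). H2-K1, a classical MHC class I heavy chain, was at 284, 264, 238 and 214 CPM in the immature libraries and 401, 397, 389.6 and 421 CPM in the mature libraries (log2 fold change -0.68, SE 0.15, adjusted p = 0.0204), and Psmb8, a catalytic subunit of the immunoproteasome that supplies peptides to it, was at 42.5, 39.7, 35.5 and 36 CPM in the immature libraries and 74, 72.8, 68.4 and 45.6 CPM in the mature libraries (log2 fold change -0.76, SE 0.18, adjusted p = 0.0307). Neither overlapped between the ages. Each of these 8 genes lost its call without between 3 and 6 of the libraries in turn, with an adjusted p of up to 0.101 for Slc11a1, 0.175 for Wfdc17, 0.209 for Il10ra, 0.141 for Slc15a3, 0.0995 for Cd244a, 0.112 for Plscr1, 0.0987 for H2-K1 and 0.145 for Psmb8. No member of the lists of 32 interferon-induced genes (median -0.37, 6 at an unadjusted p under 0.05 and 1 by DESeq2) and 11 MHC class II genes (median -0.35, 3 at an unadjusted p under 0.05 and 1 by DESeq2) passed. Outside the immunoglobulin and Jchain genes, 38 genes were higher in mature mice. Of these, 6 passed with the replicate number as a block, 11 with the muscle score as a covariate and 33 with the 8 baseline libraries alone.

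A cluster of apolipoprotein L genes on chromosome 15 gave some of the largest differences in favour of mature mice. Apol11a was at 1.37, 2.16, 2.72 and 0.383 CPM in the immature libraries and 34.3, 31.1, 47 and 45.4 CPM in the mature libraries (log2 fold change -4.57, SE 0.69, adjusted p = 5.57e-04). Apol11b, the most abundant, was at 23, 31.1, 35.2 and 22.8 CPM in the immature libraries and 211, 175, 291 and 244 CPM in the mature libraries (log2 fold change -3.04, SE 0.63, adjusted p = 0.0121). Apol10a had at most 3 reads in any immature library and was at 1.89, 3.19, 4.53 and 3.48 CPM in mature libraries, which makes it at least 10.2-fold higher in mature mice (adjusted p = 0.00478, with 3 counts per library as the floor). The ages did not overlap in any of the 3 genes. Apol11a and Apol10a passed whichever library was left out, and Apol11b lost its call without mature replicate 3 or immature replicate 6 (up to 0.0561). The genes lie on chromosome 15, 77477047 to 77491069, plus strand (Apol10a), 77508271 to 77518051, plus strand (Apol11a) and 77633946 to 77643286, minus strand (Apol11b) in GRCm38 with GENCODE vM21. Their promoters are shown so that the neighbouring copies can be compared. Reads of related copies may have been shared or dropped in counting, which was not tested, so single values are uncertain. Of 300 promoter bases 298 (99.3%) were the same in Apol11a and Apol11b, and Apol10a matched them at 88.4% and 89% of 301 aligned positions. Capitals mark the match to the core of the interferon-stimulated response element, a pair of GAAA repeats set 2 bases apart, searched on both strands and here found in reverse orientation, 50 bases before the start in Apol11a and Apol11b and 51 in Apol10a. The RefSeq windows are chr15:77476797-77477096 (plus strand), chr15:77508019-77508318 (plus strand) and chr15:77643237-77643536 (minus strand) in GRCm38.p6, 5′ to 3′.
Apol10a: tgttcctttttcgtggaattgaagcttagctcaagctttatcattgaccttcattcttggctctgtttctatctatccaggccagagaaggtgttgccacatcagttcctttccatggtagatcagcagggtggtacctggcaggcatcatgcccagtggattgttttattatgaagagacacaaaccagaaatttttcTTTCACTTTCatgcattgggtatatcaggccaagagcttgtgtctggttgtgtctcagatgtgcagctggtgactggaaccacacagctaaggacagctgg
Apol11a: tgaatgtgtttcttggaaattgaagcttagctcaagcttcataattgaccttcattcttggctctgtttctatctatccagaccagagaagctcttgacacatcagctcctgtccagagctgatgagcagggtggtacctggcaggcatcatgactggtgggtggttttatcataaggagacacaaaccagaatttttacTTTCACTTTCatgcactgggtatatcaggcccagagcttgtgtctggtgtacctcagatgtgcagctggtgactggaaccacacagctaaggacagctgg
Apol11b: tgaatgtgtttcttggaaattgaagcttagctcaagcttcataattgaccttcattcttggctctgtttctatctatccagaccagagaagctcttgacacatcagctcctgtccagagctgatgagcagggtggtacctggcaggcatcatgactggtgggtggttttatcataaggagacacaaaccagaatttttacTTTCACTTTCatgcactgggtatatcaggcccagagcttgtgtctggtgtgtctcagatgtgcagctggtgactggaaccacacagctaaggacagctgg

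Promoters were at hand for 55 of the 76 genes higher in immature and 32 of the 47 named genes higher in mature mice. The core of the interferon-stimulated response element was held by 4 of the 32 (12.5%: the 3 Apol genes and Tenm4), by 3 of the 55 (5.45%) and by 3.91% of all 13137 tested genes with a promoter. The 3 Apol promoters are near copies of each other (88.4% to 99.3% identical), so their matches are not independent. Whether the shares differ was not tested. TATAAA was held by 6 of the 32 (18.8%), 8 of the 55 (14.5%) and 10.2% of all. The PU.1 motif GAGGAAGT and the AP-1 motif TGACTCA were each held by 3 of the 32 (9.38%) and 1 of the 55 (1.82%), beside 3.78% and 5.11% of all. CCAAT was held by 28.1%, 43.6% and 42.1%, and GGGCGG by 43.8%, 60% and 62%, in the same order. All were searched on both strands of the same window of 300 bases, and a match describes letters and not a bound site.

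Other genes higher in mature mice were of mixed function. Vwf, the von Willebrand factor of endothelium and platelets, was at 137, 133, 127 and 139 CPM in the immature libraries and 206, 285, 234 and 191 CPM in the mature libraries (log2 fold change -0.77, SE 0.19, adjusted p = 0.0448). It was the only call among 13 megakaryocyte and platelet markers, all of negative sign (median -0.65), and among 23 endothelial markers (median -0.03). Sncg, gamma-synuclein, was at 21.7, 19.6, 10.7 and 15.3 CPM in the immature libraries and 48.1, 30.8, 29.9 and 81.9 CPM in the mature libraries (log2 fold change -1.50, SE 0.34, adjusted p = 0.0255). Asns, which makes asparagine (log2 fold change -0.87, adjusted p = 0.0226), Slc3a2, the shared heavy chain of amino acid transporters (log2 fold change -0.55, adjusted p = 0.0352), and G6pdx, the entry enzyme of the pentose phosphate pathway (log2 fold change -0.85, adjusted p = 0.0139), were higher too. Dock3, an activator of the small GTPase Rac (log2 fold change -2.78, adjusted p = 0.0406), Gpr35, a G protein-coupled receptor of gut and immune cells (log2 fold change -1.33, adjusted p = 0.0110), Nxpe5 (log2 fold change -1.29, adjusted p = 0.0484) and Tpd52 (log2 fold change -0.65, adjusted p = 0.00801) complete the genes that the naming rule picked in this direction. Tpd52 lost its call without mature replicate 3 (0.0822), and the 3 others without 4 to 7 of the libraries in turn (up to 0.172 for Dock3, 0.0671 for Gpr35 and 0.217 for Nxpe5). Tenm4, a teneurin adhesion protein, was at 22.6, 19.2, 15.2 and 18 CPM in the immature libraries and 43.4, 41.5, 37.1 and 47.1 CPM in the mature libraries (log2 fold change -1.17, SE 0.24, adjusted p = 0.0110), and lost its call only without immature replicate 4 (0.0759). Vwf, Sncg, Asns, Slc3a2 and G6pdx lost theirs without 4 to 7 of the libraries in turn (up to 0.234, 0.156, 0.136, 0.168 and 0.112).

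Several calls belong to gene models without a described function. Gm15446 was at 0.228, 0.206, 0.681 and 0.383 CPM in the immature libraries and 8.38, 7.38, 9.56 and 8.41 CPM in the mature libraries (log2 fold change -4.46, SE 0.68, adjusted p = 6.69e-04), and Gm7609 was at 1.03, 0.103, 0.113 and 0.191 CPM in the immature libraries and 4.72, 3.02, 2.27 and 1.68 CPM in the mature libraries (log2 fold change -3.02, SE 0.60, adjusted p = 0.00976). Gm15446 passed whichever library was left out, and Gm7609 lost its call without immature replicate 3 or 4 (up to 0.0638). Mature libraries at 0dpr, however, had only 0, 2, 4 and 5 reads of Gm15446, so its baseline difference did not hold at every stage. Gm47283 had no read in any mature baseline library and 2.86, 4.12, 0.794 and 1.63 CPM in immature libraries, at least 7.85-fold higher in immature mice with 3 counts per library as the floor. GENCODE vM21 places Gm47283 on chromosome Y, and the study's mice are described as female. How far reads of similar genes entered these counts was not tested.

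**Figure D3:**
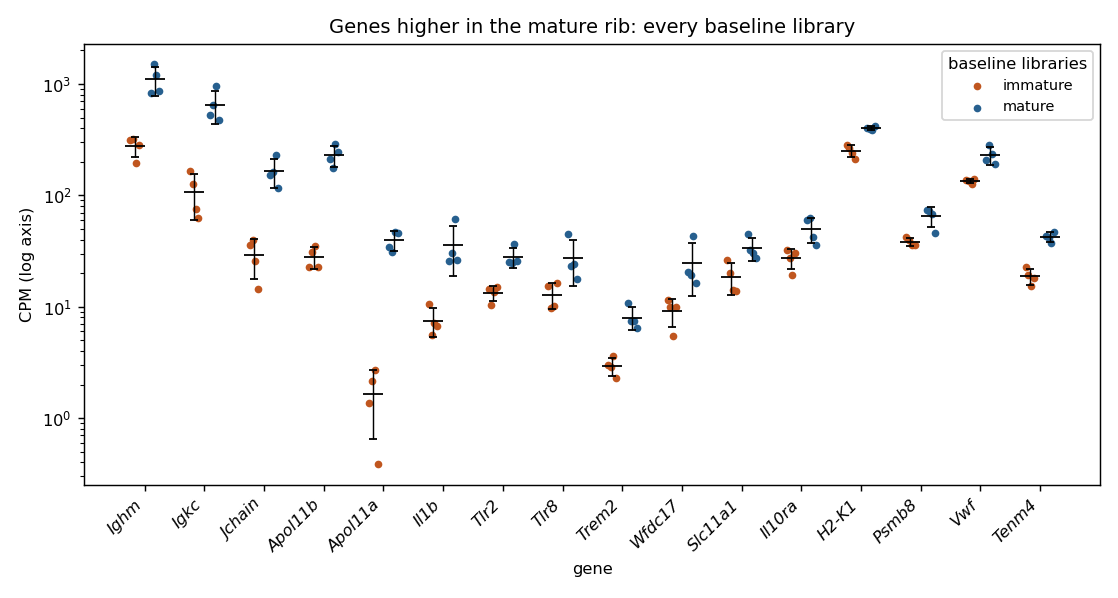
CPM of 16 genes higher in the mature rib, with 1 point per baseline library (immature, orange; mature, blue) on a log axis; bars give the mean and SD of 4 libraries. In each of these genes the 4 mature points sit above the 4 immature points, with the widest gap for Apol11a.

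Bone and cartilage genes did not pass. None of 20 osteoblast, 12 osteocyte, 15 osteoclast and 21 cartilage and growth plate markers was called, with medians of 0.22, -0.03, -0.03 and 0.03. At an unadjusted p under 0.05 there were 4, 3, 2 and 1 genes, and by DESeq2 0, 0, 1 and 0. With the 8 baseline libraries alone, 2 osteoblast markers and 1 osteocyte marker passed as higher in immature mice, 1 osteoclast marker passed in each direction, and 1 cartilage marker passed as higher in mature mice. The signs of the osteocyte, osteoclast and cartilage medians changed in some fits. The values spread widely, from -2.39 to 3.45 for cartilage, so a difference was not detectable rather than shown to be absent. Of 20 periosteal and stromal progenitor markers Postn alone passed (median 0.23), and of 37 Wnt pathway genes Dkk3 alone. No gene of the 36 TGF-beta and BMP and the 15 Hedgehog pathway genes passed (medians 0.27 and 0.12; 8 and 2 at an unadjusted p under 0.05, 0 and 0 by DESeq2). Of the 28 measured genes that the study names, 2 passed at baseline, Il1b and Ighm.

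The neutrophil granule, erythroid, G2/M and DNA replication lists gave values of nearly one sign without a call. All 20 neutrophil granule genes (median -0.59), 20 of 21 erythroid genes (median -0.48), all 30 G2/M genes (median -0.44) and all 32 DNA replication genes (median -0.41) had negative log2 fold changes. At an unadjusted p under 0.05 there were 0, 0, 1 and 2 genes in turn, and by DESeq2 0 in each list. Genes of one list share their cells, so these signs are not independent of each other. The B cell development list did not lean this way, with 16 of 23 genes positive (median 0.31). The haematopoietic stem and progenitor list did by its median (-0.47), with 10 of 15 genes negative and 5 positive. Of those 15 genes, 2 had an unadjusted p under 0.05 and DESeq2 called 1, all higher in mature mice. With the 8 baseline libraries alone 0 neutrophil granule, 8 erythroid, 3 G2/M and 1 DNA replication genes, and 7 megakaryocyte and platelet markers, passed as higher in mature mice. A marrow score was the mean log2 CPM of the erythroid, neutrophil granule and B cell development genes. It was 6.14 to 6.30 in immature and 6.01 to 6.65 in mature libraries, and with it as a covariate 118 of the 124 calls passed. The medians of these lists differ in sign (-0.48, -0.59 and 0.31), so their shifts partly offset each other in the score. The part of marrow content in the calls was not tested. With the fast muscle score as a covariate 52 of the 124 passed, 36 of the 76 higher in immature and 16 of the 48 higher in mature mice.

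**Figure D4:**
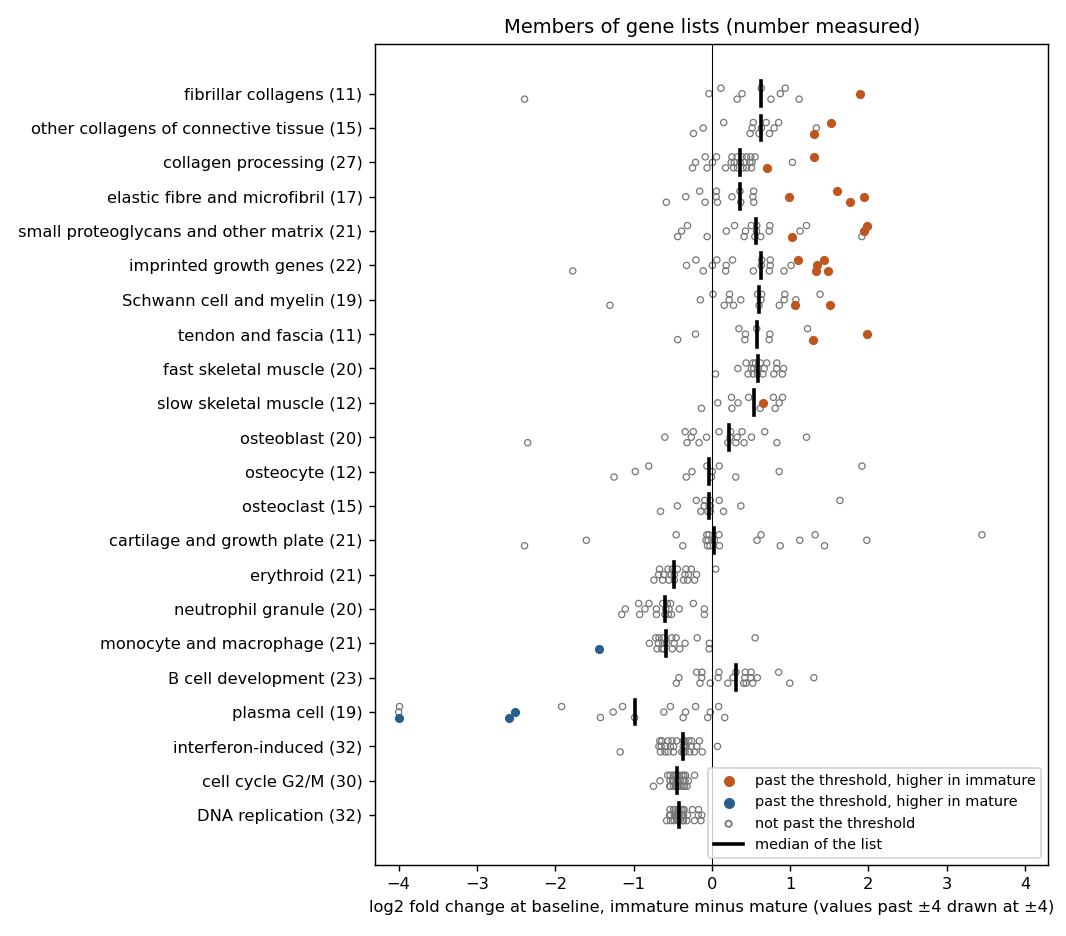
Each point is 1 gene of the list named at the left, with its log2 fold change of immature minus mature at baseline; filled points passed the threshold (orange, higher in immature; blue, higher in mature) and the bar is the median. The matrix, imprinted, Schwann cell, tendon and slow muscle lists hold the orange points, the plasma cell and macrophage lists the blue ones, and the bone and cartilage lists none.

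The same contrast was taken at the later stages, whose libraries are separate from those of baseline. At 0dpr 154 genes differed between the ages (0.726%), at 2dpr 133 (0.627%), at 5dpr 0 (0%) and at 14dpr 2 (0.00943%), by edgeR. At an unadjusted p under 0.05 there were 2278, 2812, 1081 and 968 genes, or 10.7%, 13.3%, 5.10% and 4.57% of all. Of the 124 baseline genes, 112 (90.3%) had the same sign at 0dpr, beside 53% of all genes, and 40 were called in the same direction, which is 32.3% of the baseline calls and 26% of the 0dpr calls. At 2dpr 107 (86.3%, beside 54.6%) had the same sign and 23 were called, at 5dpr 95 (76.6%, beside 48.8%) and 0, and at 14dpr 73 (58.9%, beside 50.6%) and 2, Gm15446 and Gm7609. Gm15446 was not among the 40 calls at 0dpr, where no mature library had more than 5 reads of it. The sign of the 76 genes higher in immature mice was kept by 69, 67, 53 and 31 genes in turn, and that of the 48 higher in mature mice by 43, 40, 42 and 42.

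Of the 12 matrix genes called at baseline, 11 were called in the same direction at 0dpr (all but Mfap2), 6 at 2dpr (Adamts2, Col3a1, Eln, Kera, Mfap2 and Mfap4) and 0 at 5dpr and 14dpr. Their median log2 fold change was 1.56 at baseline and 1.59, 0.76, 0.38 and -0.12 at the later stages in turn. Col3a1 had a log2 fold change of 2.14 ± 0.22 (SE) at 0dpr (adjusted p = 4.77e-07), 0.86 ± 0.21 at 2dpr (0.0490), 0.19 ± 0.23 at 5dpr (1.00) and -0.26 ± 0.21 at 14dpr (1.00). Its mean was 3286 CPM in immature and 882 CPM in mature mice at baseline, and 18593 and 22254 CPM at 14dpr. Mfap4 went through 1.95 ± 0.25, 1.53 ± 0.25, 0.38 ± 0.25 and 0.01 ± 0.23 at the same stages. Ighm was further apart at 0dpr (-3.05 ± 0.44, adjusted p = 1.08e-04) and was not called at 2dpr (-1.27 ± 0.42, 0.163). Il1b and Tlr2, called at baseline, were at -0.21 ± 0.46 and -0.20 ± 0.21 at 0dpr (0.918 and 0.792). Whether any of these changes between stages differed from 0 was tested only in the 2 interaction fits.

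The difference between the age effect at baseline and that at 0dpr was itself significant for 3 genes (0.0141%), of which 2 were of positive (0.00943%) and 1 of negative sign (0.00472%). For Mucl2 it was 3.06 ± 0.54 on the log2 scale (SE, adjusted p = 0.0230) and for Scgb2b27 3.29 ± 0.51 (adjusted p = 0.00526), both higher in immature mice at baseline. At 0dpr the signs were opposite, -1.10 ± 0.38 for Mucl2 (adjusted p = 0.198) and -1.57 ± 0.37 for Scgb2b27 (adjusted p = 0.0296). Mucl2 at 0dpr was at 26.9, 10.5, 6.19 and 10.7 CPM in immature and 36.4, 25.4, 32.2 and 20.6 CPM in mature libraries, which overlap. Apold1, an endothelial early response gene, differed by -2.11 ± 0.39 (adjusted p = 0.0371). It was at 10.2, 8.76, 9.87 and 9.0 CPM in immature and 18.3, 15, 21 and 25 CPM in mature libraries at baseline, and at 78.6, 21, 35.1 and 33.5 and 21.6, 15.6, 19.6 and 24.7 CPM at 0dpr. Scgb2b27 passed this test whichever baseline library was left out, Mucl2 did not without mature replicate 2, 3 or 4 or immature replicate 2 or 4, and Apold1 passed only without mature replicate 2. Against the mean age effect of the 4 later stages, 4 genes differed (0.0189%): Gpt2 by 1.14 ± 0.19 (adjusted p = 0.0109), Cav3 by 1.44 ± 0.26 (0.0188), Mucl2 by 2.48 ± 0.43 (0.0109) and Scgb2b27 by 2.35 ± 0.40 (0.0109). Without mature replicate 2 none passed (1166 genes at an unadjusted p under 0.05), without immature replicate 6 Mucl2 and Scgb2b27 did, each of the 5 other omissions bar that of mature replicate 4 kept 3 of the 4, and without mature replicate 4 11 genes did, Col3a1 among them.

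**Figure D5:**
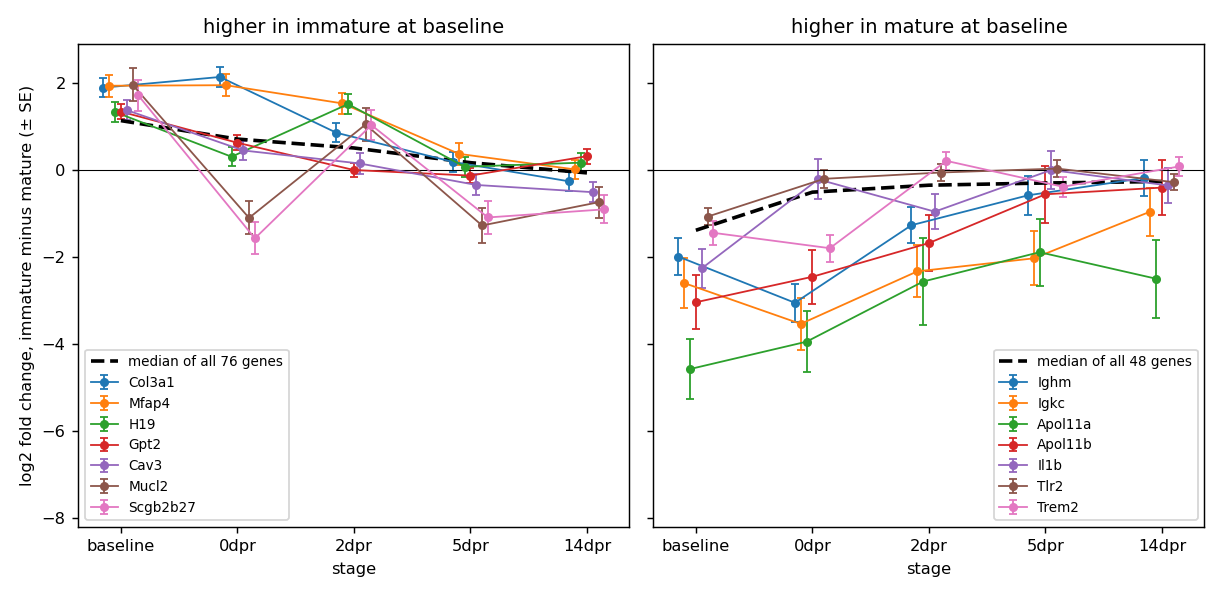
Fitted log2 fold change of immature minus mature (points, with SE) at baseline and at 0, 2, 5 and 14dpr, for genes higher in immature (left) and higher in mature mice (right) at baseline. The dashed line is the median of all genes called in that direction at baseline, which falls from 1.14 to -0.06 on the left and goes from -1.38 to -0.26 on the right; a decline from baseline is partly built in, since the genes were called there.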

How the data were processed

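Bulk RNAseq reads of composite rib tissue were mapped by the authors to GRCm38 and counted per gene with STAR (version 2.5.2a in the submitters' processing notes). As deposited, these are raw counts, listed by the authors for 48733 genes and, after a filter whose rule is not given in the sources used here, for 21204. The deposited normalized signal is the authors' CPM, which equals edgeR's CPM with TMM factors (largest relative difference 5e-15) and served only for that check.

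The analysis ran in R 4.3.3 with edgeR 4.0.16, DESeq2 1.42.0 and limma 3.58.1. After TMM scaling, edgeR's quasi-likelihood model was fitted to the filtered counts with 1 coefficient per group over 39 libraries (mature 5dpr replicate 2 was not analysed here). The contrast of immature with mature baseline libraries was tested with Benjamini-Hochberg adjustment over all 21204 genes at a threshold of 0.05. The age effect at baseline was also contrasted with that at 0dpr and with the mean of the 4 later stages. Log2 CPM of list scores used a prior count of 2. Floors are 3 counts per library and cover counting error only. Positions were found for 21132 of the genes in GENCODE vM21, and promoters are RefSeq windows on GRCm38.p6.

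In simulated counts of 21204 genes, 200 were changed, all drawn from genes with a mean of at least 1 CPM. The fit called 54% of the genes changed 2-fold and 88% of those changed 4-fold, with 5 false calls among 147. Recovery among genes with fewer reads was not tested. Libraries of a group differed by at least 6.39 times the counting variance, so none was a duplicate.

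Genes were named by a rule, namely the 15 largest log2 fold changes and the 8 smallest adjusted p in each direction among called genes with a mean of at least 1 CPM and no overlap, the 4 members of each of 57 gene lists with the smallest unadjusted p, and the genes the study names. Variable segments and unnamed gene models were to be counted only. The variable segments, the gene models and further called genes (Tlr8, Slc11a1, H2-K1, Psmb8, Il10ra, Slc15a3, Cd244a, Plscr1, Asns, Slc3a2, G6pdx, Tenm4, C1qtnf3, Itm2a, Vipr2, Htra1, Htra3, Hacd1, Lama2 and Nid1) were chosen after their values were seen, as were Col1a2, Fbn1, Grb10, Nnat, Ighg1 and Igha, which did not pass, and Meg3 was named for the count of its list. Some called genes are not reported here by name. The part of the series and the lists were chosen with earlier results of these data known. Alternatives were RLE factors, DESeq2, other gene filters and thresholds, fewer libraries, the replicate number as a block, and muscle or marrow scores as covariates.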

Additional observations from a re-analysis of the deposited data

Results flagged for a closer look

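Among 198 groups of 4 baseline libraries tested with Dixon's criterion, 14 held a library far from the other 3, where chance alone gives about 1 in 20. In mature mice, replicate 3 stood apart for Ighv11-2 (162 CPM, others 12.6 to 34.4), Igkv14-126 (371 CPM, others 29.2 to 79.5), Il1b (61.4 CPM, others 25.8 to 30.2), Tlr2 (36.8 CPM, others 24.6 to 25.6) and Wfdc17 (42.9 CPM, others 16.3 to 20.5). Mature replicate 2 stood apart for Igkv12-89 (157 CPM, others 0.314 to 0.898), and mature replicate 4 for Mfap5 (43.9 CPM, others 23.2 to 26.3) and Meg3 (29.4 CPM, others 18.8 to 20.3). In immature mice, replicate 4 stood apart for Col16a1 (362 CPM, others 214 to 232), Itm2a (127 CPM, others 92.0 to 96.6) and Mfap2 (11.3 CPM, others 7.52 to 7.88). It was also the only immature library with reads of Ighg2c (0.908 CPM) and Apol10a (0.340 CPM). Immature replicate 2 stood apart for Gm7609 (1.03 CPM, others 0.103 to 0.191).

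The age effect at baseline differed from that at 0dpr by 3.06 for Mucl2, 3.29 for Scgb2b27 and -2.11 for Apold1 on the log2 scale, and from the mean of the later stages by 1.14 for Gpt2, 1.44 for Cav3, 2.48 for Mucl2 and 2.35 for Scgb2b27, all by interaction contrasts of the edgeR fit with an adjusted p under 0.05.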

How the results depend on the processing

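The 124 calls at baseline (76 higher in immature, 48 higher in mature mice) became 471 (210 and 261) with the 8 baseline libraries alone, 338 (169 and 169) with DESeq2, 64 (46 and 18) with the muscle score as a covariate, 76 (31 and 45) with that score in the 8 libraries, 200 (112 and 88) without mature replicate 4 and immature replicate 2 together, 32 (21 and 11) at an adjusted p under 0.01 and 81 (49 and 32) with an absolute log2 fold change over 1 added. The fits with the score in the 8 libraries and without 2 libraries were chosen after seeing the data. RLE factors moved the split to 67 and 55, and the use of all genes with at least 1 count to 63 and 60, of 122 and 123 calls. The robust fit gave 121, edgeR's own filter 136 and the marrow score 131. Leaving out each library in turn gave 27 to 256 calls, 16 to 161 of them higher in immature and 11 to 95 higher in mature mice. Shared with the 124 were 115 calls under RLE, 52 and 34 under the muscle covariates, 101 without the 2 libraries and 120 under DESeq2, and none of the 124 reversed. The contrast with 0dpr gave 19 calls with DESeq2 and 1 to 2 without single libraries, and that with the later mean gave 35 with DESeq2 and 0 to 11. Same-numbered libraries of the ages (replicates 2, 3 and 4) had deviations correlated at -0.0467, 0.0160 and 0.155. Differently numbered libraries were not compared in this way, so whether the numbers pair the libraries was not tested. With the replicate block 28 genes passed (20 and 8), 25 of them among the 124. In the contrast with 0dpr the block gave 3, Mucl2, Scgb2b27 and Ighv1-59 but not Apold1, and in that with the later mean 2, Mucl2 and Scgb2b27. Of 96 named genes followed through these fits, which leave out Col2a1, none reversed. The causes of these shifts were not tested. Runs and the differing tissue mixture limit the comparison. In simulated counts the fit recovered 54% of 2-fold changes in genes with a mean of at least 1 CPM.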

Other observations

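Gm15446 and Gm47283 varied between stages within 1 age. In mature mice, Gm15446 had 80, 88, 97 and 75 reads at baseline, 0, 2, 4 and 5 reads at 0dpr, 81, 78, 165 and 163 reads at 2dpr, 66, 9 and 6 reads at 5dpr and 63, 96, 75 and 66 reads at 14dpr, whereas no immature library of any stage had more than 8 reads. Gm47283 had no read in the 4 mature baseline libraries, 12, 16, 13 and 5 reads in mature mice at 0dpr, 2, 1, 0 and 12 at 2dpr, 1, 14 and 23 at 5dpr and 0, 0, 2 and 0 at 14dpr, and between 3 and 65 reads in every immature library. Within mature mice the libraries of some stages thus lay apart from those of others for genes that separated the ages at baseline. Of 6 listed genes known to differ between C57BL/6 substrains 4 were measured, and none passed at baseline (0 at an unadjusted p under 0.05 and 0 by DESeq2). This baseline count does not cover the later stages, and the origin of the mice was not tested.

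Of 18 circadian clock genes none passed, although all had a positive log2 fold change (median 0.29). Of 20 white adipocyte markers (median -0.15), 17 genes of cell cycle arrest and senescence (median -0.30) and 24 T cell and cytotoxic lymphocyte markers (median -0.38) none passed either. At an unadjusted p under 0.05 these 4 lists held 0, 2, 7 and 3 genes by edgeR, beside 11.7% of all genes. DESeq2 called 0 in each. The 7 of 17 cell cycle arrest and senescence genes were 5 higher in mature and 2 higher in immature mice. The 2 white adipocyte genes were 1 in each direction, and the 3 T cell genes were higher in mature mice. None of 22 complement genes passed by edgeR (median -0.10, 8 at an unadjusted p under 0.05), and DESeq2 called 1.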
